A study of Homo sapiens with 21 samples.

Results

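Integrins are pairs of an alpha and a beta subunit that hold a cell to the matrix around it, and the basement membrane is the sheet of matrix that many of them bind. The genes of both were followed here from human induced pluripotent stem cells (iPSCs) to cardiomyocytes (CMs). The members were every integrin subunit gene from ITGA1 to ITGA11 together with ITGA2B, ITGAV, ITGAE, ITGAL, ITGAM and ITGAX, the integrin beta genes ITGB1 to ITGB8, every laminin chain gene (LAMA, LAMB and LAMC), both nidogen genes (NID1 and NID2), HSPG2, AGRN and DAG1. They were chosen by gene symbol. The gene annotation holds 42 such genes, and 37 of them were listed for at least 1 comparison, among 11851 gene symbols listed in the whole series. ITGAL, ITGAM, ITGAX, ITGB7 and LAMB4 were listed in no comparison, which says only that no transcript of theirs passed the test. The 37 genes account for 175 results on 96 transcripts.

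RNA-seq of poly-A RNA was made from 21 libraries in 7 groups of 3. The wild-type PGP1 line, a human iPSC line grown on Matrigel, was taken as iPSCs and at 4 later stages, which are mesoderm (M), then cardiac mesoderm (CMes), then the progenitors of the heart lineage (cardiac progenitor, CP), and last the CMs. The CMs of 2 UBE2B-/- lines of the same PGP1 background, called UBE2B-/-1 and UBE2B-/-2, were the other groups. UBE2B is the E2 enzyme of the complex that adds a single ubiquitin to histone H2B. Each line came from its own CRISPR-Cas9 experiment and from a picked colony, and the sequenced CMs of both genotypes were beating cells enriched by lactate selection, a step the earlier stages did not have. The paper plated more cells for the UBE2B-/- lines than for wild type, so genotype and plating number cannot be told apart. In its staining, only part of the beating UBE2B-/- cells had the cardiomyocyte marker TNNT2. Replicates were plates begun at different times, with wells pooled.

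The values are the deposited results of a test between groups, with no value for a single library, so the depth of the libraries is unknown and no sample can be shown alone. Group means are estimated counts recovered from those results (geometric means, not corrected for length unless given per kilobase). Changes are given on the log2 scale with the standard error of the test, as change ± SE, with 3 libraries in each group throughout. A transcript was called when its q-value was at most 0.05 and its change at least 1.79-fold, and a gene took the direction of its called transcript with the highest mean. Depending on the comparison, 65457 to 71328 transcripts were tested. Of the targeted gene, 1 UBE2B transcript was listed as lower in UBE2B-/-1 and none in UBE2B-/-2, so the labels of the second line could not be checked on these transcript levels. The paper itself checked the knockouts by sequencing their cDNA. The homologous gene UBE2A was listed as lower in UBE2B-/-1 by a change below the size limit (-0.68 ± 0.20). As a check of the labelled stages, all 13 cardiomyocyte markers rose from CP to CM. Of 8 pluripotency markers, 7 fell at CMes to CP and 7 at CP to CM, though not the same 7. At iPSC to M only 2 of the 8 were called, both lower, and at M to CMes 3 fell and 1 (DNMT3B) rose. That rise was called on a lesser transcript (464 to 1887 estimated counts), and the DNMT3B transcript that had fallen at iPSC to M was not called. These markers therefore say little about the M label.

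A laminin is a cross of 1 alpha, 1 beta and 1 gamma chain. Laminins polymerise next to the cell surface, nidogens and the heparan sulphate proteoglycans perlecan (HSPG2) and agrin (AGRN) tie them to type IV collagen, and integrins with beta 1 and dystroglycan (DAG1) bind them from the cell side. The embryo's early laminin has the chains LAMA1, LAMB1 and LAMC1, whereas striated muscle is wrapped in laminins that carry LAMA2. Several integrin genes also use alternative exons. ITGB1 gives the form called beta 1D in striated muscle, ITGA6 and ITGA3 have forms with different tails inside the cell, and ITGA7 has forms that differ in an extracellular exon.

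Because the test was made per transcript, some of these forms could be told apart. The sequences below are the exons by which a called transcript differs from another annotated transcript of the same gene, read from hg38 on the coding strand up to the stop codon where the exon holds one, with that stop codon in capitals.
ITGB1-205 (beta 1D tail), chr10:32907069-32907143, minus strand: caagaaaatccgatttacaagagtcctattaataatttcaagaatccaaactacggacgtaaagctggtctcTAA
ITGA6-201 (alpha 6A tail), chr2:172501772-172501879, plus strand: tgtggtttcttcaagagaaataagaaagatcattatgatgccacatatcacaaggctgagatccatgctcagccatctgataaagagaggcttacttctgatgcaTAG
ITGA3-202 (alpha 3A tail), chr17:50088225-50088335, plus strand: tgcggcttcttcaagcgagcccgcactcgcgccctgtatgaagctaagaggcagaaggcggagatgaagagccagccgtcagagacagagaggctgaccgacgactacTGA
ITGA7-201 (extracellular exon), chr12:55699870-55699989, minus strand: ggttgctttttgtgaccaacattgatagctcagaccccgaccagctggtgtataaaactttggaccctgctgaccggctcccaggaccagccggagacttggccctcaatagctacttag
ITGA7-206 (the alternative exon), chr12:55700262-55700393, minus strand: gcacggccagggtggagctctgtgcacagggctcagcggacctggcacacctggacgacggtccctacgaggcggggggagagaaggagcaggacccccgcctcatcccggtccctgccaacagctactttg

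The ITGB1-205 exon is 81 bases long and is found in 3 of the 36 annotated ITGB1 transcripts. It lies between exons that ITGB1-201 joins directly, and its stop codon replaces the usual tail. The alpha 6A exon is 130 bases long and the alpha 3A exon 142 bases, each in 3 transcripts of its gene (of 12 for ITGA6 and of 16 for ITGA3). Both ITGA7 exons keep the reading frame, with 120 and 132 bases. Aligned, they share 63 of 120 positions (52.5%).

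At iPSC to M, the first step of the series, few members moved. LAMC1, the gamma chain of most laminins, rose, and AGRN, DAG1, ITGA1 and ITGA9 fell. That is 1 member called higher and 4 called lower of 42, beside 3.12% of protein-coding genes called higher and 4.21% called lower. LAMC1-201 went from 6676 to 14172 estimated counts (1.09 ± 0.12 on the log2 scale, q-value = 2.53e-17), and a short second LAMC1 transcript rose with it. DAG1-201, which encodes the dystroglycan precursor, went from 6764 to 3758, a change of -0.85 ± 0.12 (q-value = 4.06e-10). ITGA1-208, of the collagen receptor alpha 1, went from 282 to 108 (-1.38 ± 0.20), although this transcript is annotated as a target of nonsense-mediated decay. ITGA9, whose subunit binds tenascin and other ligands with beta 1, went from 441 to 183 (-1.26 ± 0.19). AGRN was called through a transcript with a retained intron, AGRN-202 (328 to 164, -0.997 ± 0.28). The coding transcript AGRN-201 was listed as lower by a change below the size limit (3137 to 2292, -0.45 ± 0.12). LAMA1, LAMB1 and ITGAV were listed below that limit too, with changes of 0.41 ± 0.11, 0.46 ± 0.12 and -0.78 ± 0.13.

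At M to CMes, ITGA5, ITGA8 and ITGAV, of the RGD-binding alpha subunits, rose while ITGA6, the laminin receptor subunit abundant in pluripotent cells, fell. Of 42 members, 12 were called higher and 7 lower, against 8.91% and 6.49% of protein-coding genes. The median log2 change of the called member genes was 1.15, and that of all called genes was 0.98. ITGA5, the alpha chain of the main fibronectin receptor, moved from 700.5 to 8137 estimated counts (3.54 ± 0.13, q-value = 1.08e-164). The absolute z of this change (the change over its standard error) was the largest among the members at this step. With it, 3 smaller ITGA5 transcripts were called higher. ITGA8, a beta 1 partner that binds nephronectin, went from 3.42 to 435 (6.79 ± 0.66), a start so low that the fold is poorly fixed. ITGAV, the partner of several beta subunits, went from 987 to 2779 (1.49 ± 0.21), and its partner ITGB8 from 18.7 to 90.7 (2.25 ± 0.49). Of the 4 RGD-binding alpha genes, 3 thus rose and ITGA2B was not called. ITGA9 turned from its earlier fall to a rise, from 196 to 1153 (2.55 ± 0.17).

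Among the subunits that fell at M to CMes were receptors for laminin, collagen and VCAM-type ligands. The alpha 6A transcript ITGA6-201, whose exon is printed above, fell from 2664 to 696 (-1.94 ± 0.29), and ITGA6-202, which lacks that exon, from 2693 to 1490.0 (-0.85 ± 0.21). Most of the variance of ITGA6-201 was technical (82.8%), the share that the fit assigns to the estimation of the counts and not to differences between libraries. ITGA2, of a collagen receptor, went from 383 to 133 (-1.52 ± 0.34). ITGA4, whose subunit binds VCAM1 and fibronectin, went from 136 to 41.3 (-1.71 ± 0.33). ITGB4 and ITGB5 were called only on transcripts with few counts. ITGB4-201 went from 29.0 to 0, and a decay-type ITGB5 transcript from 39.9 to 1.85.

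In the matrix, LAMA1, AGRN and NID2 rose at this step. LAMA1-201 went from 3217 to 7740.5 (1.27 ± 0.13), AGRN-201 from 2452 to 5455 (1.15 ± 0.12) and NID2-201 from 227 to 494 (1.12 ± 0.33). AGRN and DAG1 reversed the direction they had at iPSC to M, and the DAG1-201 level went from 4019.6 to 8704 (1.11 ± 0.16). LAMC1 was called lower only through a short transcript (-0.86 ± 0.27), since the change of its main transcript was below the size limit (15160.3 to 9011, -0.75 ± 0.14). HSPG2 and LAMA5 were called higher only through transcripts with retained introns, and ITGA11 at low counts (17.6 to 63.1). Matrix genes outside the members moved at the same step. Of 6 type IV collagen genes, 4 rose, and of 7 other integrin ligands 4 rose, with fibronectin (FN1) at a change of 2.38 ± 0.18. Cell type markers rose too. Of 9 mesenchymal or fibroblast markers 7 rose, and the summed level of those listed went from 2489 to 8091 estimated counts. Of 11 endoderm or epithelial markers 7 rose and 1 fell, with a summed level of 29791 at M and 68272 at CMes, and of 8 endothelial markers only VWF was called (8.03 ± 0.82). The part of such cells in the changes of the members at this step was not tested. Summed levels hold only transcripts listed for the step, so they add no evidence to the calls and cannot be compared between steps.

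At CMes to CP, 8 genes of the laminin, nidogen, perlecan and dystroglycan groups rose and LAMC3 fell. All 3 chains of the early embryonic laminin, LAMA1, LAMB1 and LAMC1, were called higher, with LAMA5, both nidogens, HSPG2 and DAG1. The counts were 14 members higher and 3 lower of 42, beside 8.19% and 6.89% of protein-coding genes, and the median change of the called members was 1.71 against 0.92 for all called genes. LAMB1-201 went from 6022 to 32395 estimated counts (2.43 ± 0.12, q-value = 2.27e-84). Its partners followed, with LAMA1-201 going from 7789.6 to 25440.3 (1.71 ± 0.13) and LAMC1-201 from 9069 to 22666 (1.32 ± 0.17). Per kilobase, on the scale of the CP to CM comparison, the CP level was 5078 for LAMB1-201, 2532 for LAMC1-201, 2337 for LAMA1-201 and 684 for LAMA5-201. LAMB1 stood above both partner chains, and LAMC1 and LAMA1 lay close together. Among the main transcripts of matrix genes NID2-201 had the largest change, from 497 to 11579 (4.54 ± 0.29), and that of NID1 was smaller, from 1564 to 3206 (1.04 ± 0.10). HSPG2-203, the full-length perlecan transcript, went from 4397 to 18484 (2.07 ± 0.18), LAMA5-201 from 3607 to 8829 (1.29 ± 0.10) and DAG1-201 from 8759 to 17202 (0.97 ± 0.15).

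LAMB1 had 8 further transcripts called higher at CMes to CP. The most abundant was LAMB1-204, which starts at another first exon than LAMB1-201 and went from 206 to 4931 (4.58 ± 0.67). Of its variance, 69.6% was technical. AGRN, LAMB2 and ITGA3 were listed as higher by changes below the size limit (0.68 ± 0.11, 0.78 ± 0.14 and 0.81 ± 0.15).

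Integrin subunits divided at CMes to CP. ITGAV rose from 2797 to 9837 (1.81 ± 0.24), ITGA8 from 438 to 1823 (2.06 ± 0.13) and ITGB8 from 91.2 to 592 (2.69 ± 0.38). The fibronectin receptor chain ITGA5 fell from 8189 to 3761 (-1.12 ± 0.10), and ITGA9 fell from 1160.3 to 424 (-1.45 ± 0.21). LAMC3 was the only laminin chain called lower, from 675 to 333 (-1.02 ± 0.15). ITGA2 rose modestly (1.21 ± 0.35), and ITGB3 and ITGB6 rose from near 0 (4.86 to 37.4 and 0 to 31.0). Among the ligands outside the members, FN1 rose again (2.77 ± 0.25), as did nephronectin (NPNT, 6.57 ± 0.76), a ligand of the ITGA8 receptor. Markers of other cell types moved at the same step. Of 9 mesenchymal or fibroblast markers 6 rose, and the summed level of the listed ones went from 8241 to 98088 estimated counts. Of 11 endoderm or epithelial markers 6 rose and 1 (SOX17) fell, and the summed level of the 9 listed went from 61756 to 145056. Of 8 endothelial markers only VWF was called, and it fell (-4.55 ± 0.24). The part of these cells in the rise of the basement membrane genes was not tested, and in bulk RNA fewer cells of a type and less RNA per cell cannot be told apart. Here too the sums hold only transcripts listed for the step and add no evidence to the calls.

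**Figure D1:**
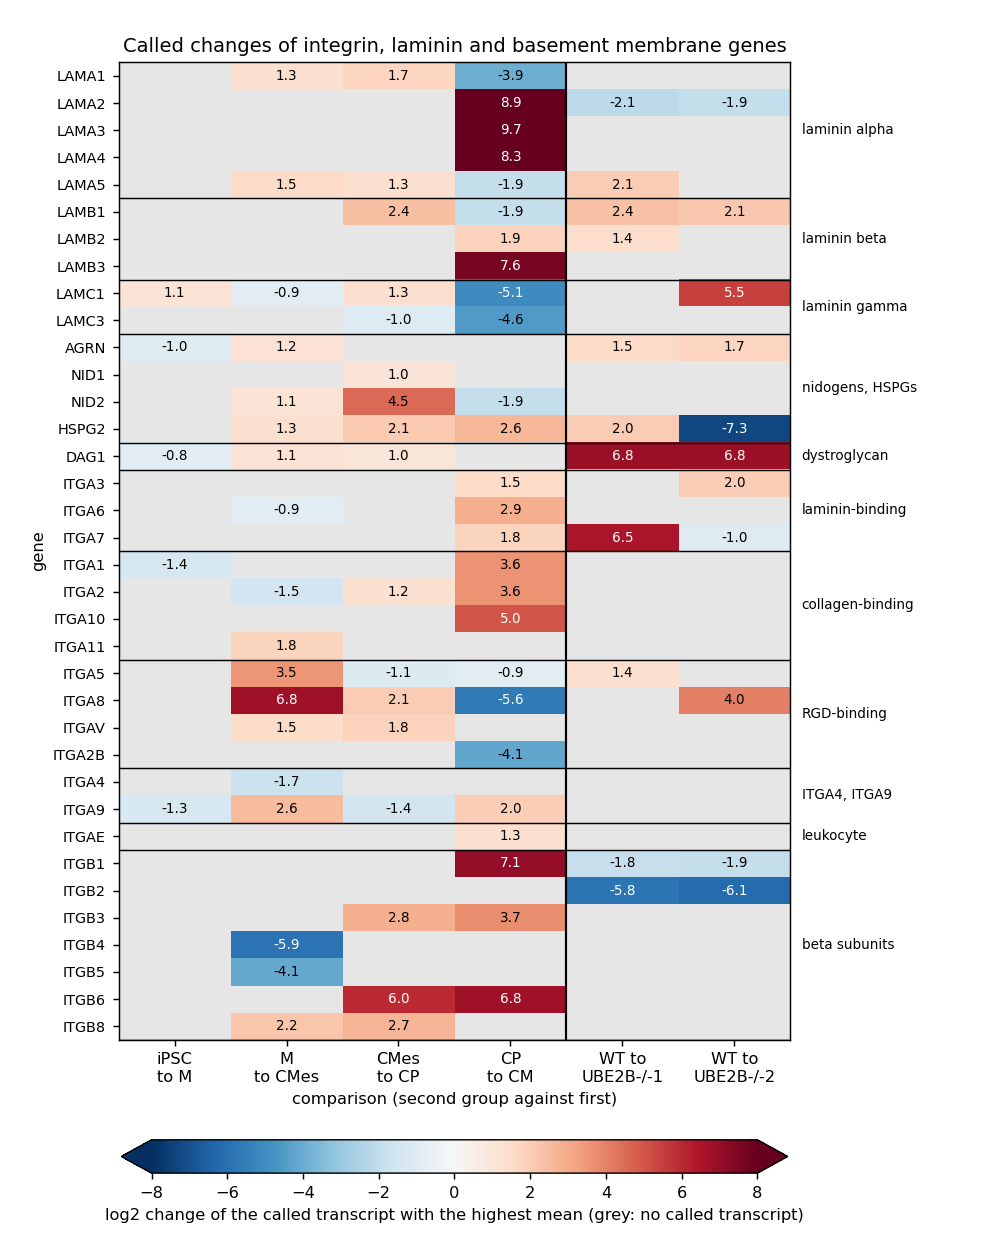
Log2 change of the listed genes described here in the 6 comparisons, genes in rows by role and comparisons in columns, red for higher and blue for lower in the second group, grey where no transcript was called; sizes that rest on a group mean near 0 depend on the pseudocount. The CP to CM column has the most calls, and LAMA1, LAMB1, NID2 and ITGA8 are red at CMes to CP and blue at CP to CM.

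CP to CM had the most called members. The early laminin chains LAMA1 and LAMB1 fell, as did NID2 and ITGA8, and LAMA2, LAMA4, LAMB2, the muscle form of ITGB1, all 3 laminin-binding alpha subunits and 3 of the 4 collagen-binding ones rose. In all, 18 members were called higher and 9 lower of 42, where 16.4% and 14.4% of protein-coding genes were. The median change of the called members was 1.98 (0.91 over all called genes), and its median size without sign was 3.75 (1.87 over all called genes). LAMA1-201 fell from 22528 to 1495 (-3.91 ± 0.60, q-value = 2.6e-09) and LAMB1-201 from 28686 to 7608 (-1.91 ± 0.30). NID2-201 fell from 10254 to 2750.5 (-1.90 ± 0.15). LAMC3-202 fell from 295 to 12.1 (-4.55 ± 0.50), its second fall in a row.

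The rising laminin chains were ones known from muscle, vessels and epithelial attachment. LAMA2-201, the alpha chain whose loss causes a congenital muscular dystrophy, went from 13.0 to 6534 (8.92 ± 2.39, q-value = 0.0019), with a wide error. LAMB2-201, a beta chain of muscle laminins, went from 2761 to 10069 (1.87 ± 0.15). LAMA4, found in the laminins of vessels and heart muscle, was called on 6 transcripts, led by LAMA4-207 (2.12 to 818), whose CP mean is under a floor of 3 counts, so that the size of its rise is not fixed. LAMA4-219 went from 0 to 588, which is at least 196-fold higher against a floor of 3 counts per library. LAMA3-201 and LAMB3-201, chains known from epithelial laminins, also rose. LAMA3-201 went from 0 to 418 (at least 139-fold higher) and LAMB3-201 from 3.71 to 823 (7.61 ± 1.69).

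The order of the chains differed between CP and CM. Per kilobase in CM, the level was 1769 for LAMB2-201, 1346 for LAMB1-201, 674 for LAMA2-201, 449 for LAMA5-201 and 155 for LAMA1-201. Between neighbours in this order, only LAMA5-201 and LAMA1-201 stood more than 2 standard errors of their difference apart. LAMB2-201 and LAMB1-201 each stood further than that above LAMA5-201, so that only the place of LAMA2-201, and LAMB2-201 against LAMB1-201, is not fixed. In CP the same quantity was 485 for LAMB2-201, 5078 for LAMB1-201 and 1.34 for LAMA2-201. LAMC1 has no main transcript in this order, because LAMC1-201 was not listed at CP to CM. The LAMC1 call came from a short transcript (16.2 to 0), and the LAMA5 call from fragments with retained introns. LAMA5-201 itself was listed below the size limit (7818 to 5125, -0.61 ± 0.18).

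HSPG2 was called higher at CP to CM on 3 coding transcripts of 708, 865 and 921 bases, the first 2 going from 3.47 to 181 and from 28.5 to 179, while the full-length perlecan transcript was not listed. AGRN-208 was lower by a change below the limit (-0.71 ± 0.18).

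**Figure D2:**
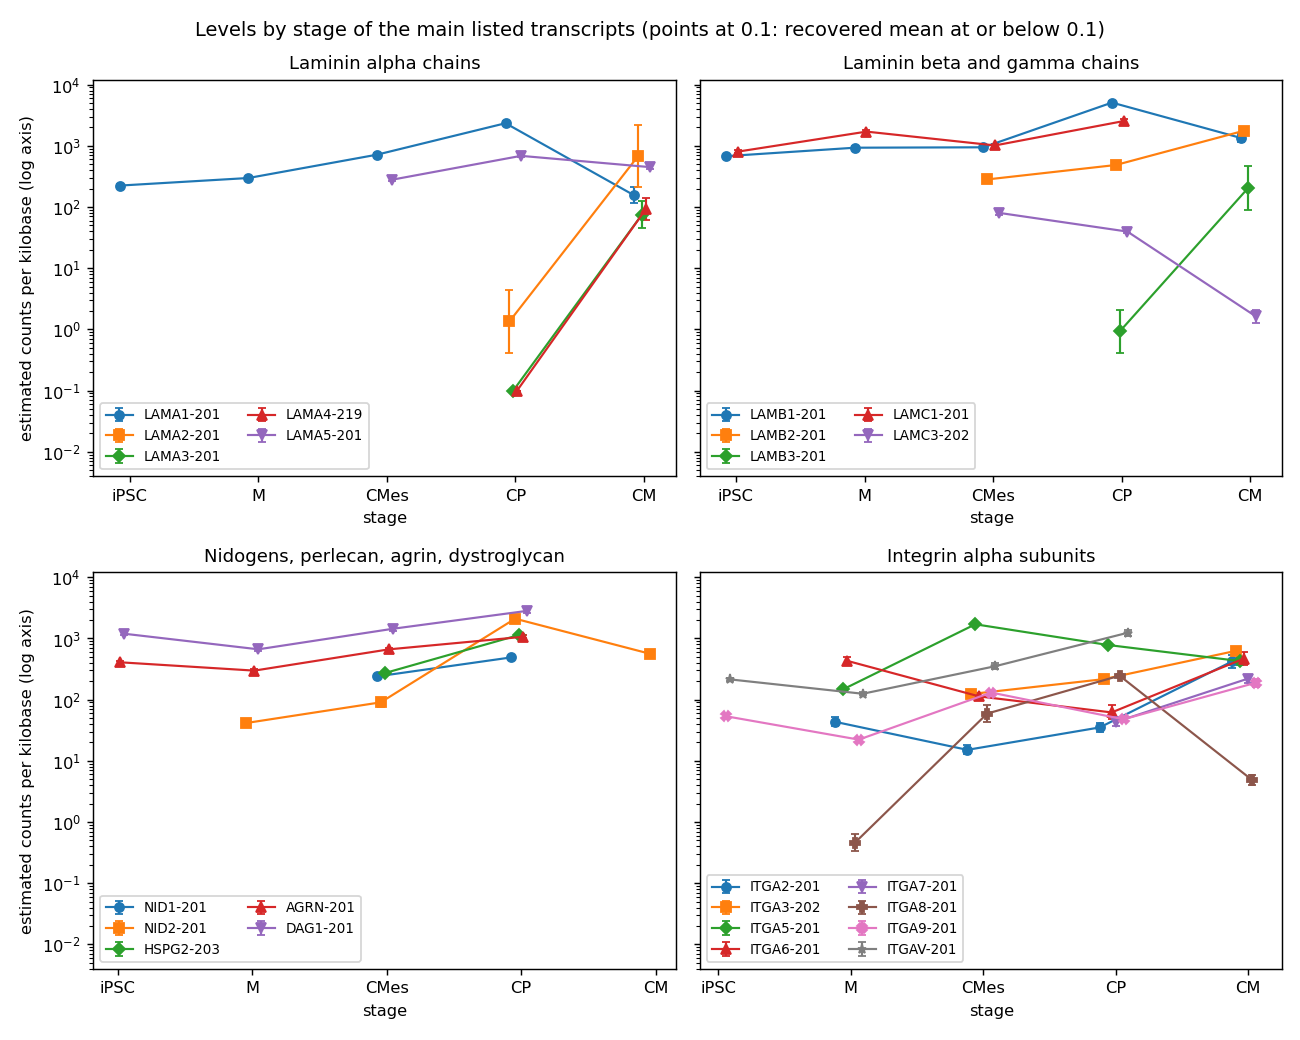
Recovered group means of the main listed transcripts at each stage, in estimated counts per kilobase on a log axis and on the scale of the CP to CM comparison, with 1 standard error of the mean, and joined where neighbouring stages both have a value. LAMA1-201, LAMB1-201 and NID2-201 peak at CP, LAMA2-201 and LAMB3-201 are near 0 at CP and high at CM, and ITGA8-201 goes from 247 at CP to 4.88 at CM.

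Among the receptors at CP to CM, ITGB1-205, the beta 1D transcript with the exon printed above, went from 68.6 to 9214 (7.06 ± 0.84, q-value = 1.9e-15). Nearly all of its variance was technical (97.3%), and no other ITGB1 transcript was listed in any comparison. All 3 laminin-binding alpha subunits rose. ITGA6-201 went from 339.6 to 2576 (2.92 ± 0.53) and ITGA3-202 from 1058 to 3077 (1.54 ± 0.28), both the forms with the A-type tail printed above. The first reversed its fall at M to CMes. ITGA7, the muscle laminin receptor, rose with either of its alternative exons, from 178 to 911 in ITGA7-201 (2.35 ± 0.31) and from 229 to 772 in ITGA7-206 (1.75 ± 0.38). Technical variance made up 73.4% and 82.2% of their variance.

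Of the 4 collagen-binding alpha subunits, 3 rose and ITGA11 was not called. ITGA1-208 went from 87.4 to 1067 (3.60 ± 0.35), ITGA2-201 from 276 to 3307 (3.58 ± 0.51) and ITGA10 at low counts (0.636 to 37.1). ITGA9 rose from 376 to 1489 (1.98 ± 0.30), so that its calls alternated between lower and higher over the 4 steps. ITGB6, which with ITGAV activates latent TGF-beta and is best known from epithelium, went from 27.4 to 3028 (6.76 ± 0.58), with 3 further transcripts. ITGB3 went from 33.1 to 451 (3.75 ± 0.43).

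The RGD-binding alpha subunits moved the other way from CP to CM, with 3 of 4 lower and ITGAV not listed. ITGA8-201 fell from 1614 to 31.9 (-5.64 ± 0.37, q-value = 5.77e-50) and ITGA5-201 from 3331 to 1814 (-0.88 ± 0.32). ITGA2B was called at low counts (32.4 to 1.38). Their ligands outside the members did not all move alike. FN1 fell (-1.998 ± 0.61) and NPNT rose (2.49 ± 0.25). Of 28 adhesion adaptor genes, 13 rose and 6 fell, and ITGB1BP2 (melusin), a muscle protein that binds the beta 1 tail, had a change of 6.94 ± 0.47. Of 12 genes that work with dystroglycan, 6 rose and 1 fell. DAG1 itself was not listed.

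Marker lists moved with these results. From CP to CM the summed level of all 13 cardiomyocyte markers went from 18948 to 661331 estimated counts, and that of the 6 smooth muscle markers from 10649 to 35954. The listed endoderm or epithelial markers (8 of 11) went from 32377 to 2981, and the mesenchymal or fibroblast markers (8 of 9) from 60371 to 13877. Of the latter, 6 were called lower and 2 (POSTN and COL1A1) higher. COL1A1 was called through a lesser transcript (45.4 to 135), and its transcript that stood at 33499 in CP in the CMes to CP comparison was not called. Of 8 endothelial markers, 3 (TEK, KDR and VWF) were called lower. The summed levels hold only transcripts listed for this step, so they add no evidence to the calls and are not levels of a cell type. For the endoderm or epithelial list, the CP sum was 32377 here and 145056 at CMes to CP, where other transcripts were listed. Lactate selection was applied only to the CMs, so that stage and selection cannot be told apart in the fall of LAMA1, LAMB1, NID2 and ITGA8. The chains LAMA3 and LAMB3 and the subunit ITGB6 rose at the step at which 8 of 11 endoderm or epithelial markers were called lower. Among those 8, KRT8 and KRT18 were called through lesser transcripts (681 to 255 and 173 to 86.5 estimated counts). The KRT18 transcript that stood at 39436 in CP in the CMes to CP comparison was not called, and CDH1 was not listed. The part of endoderm or epithelial cells in these rises was not tested.

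In UBE2B-/- CMs, the comparison asks which transcripts differ once this enzyme of H2B ubiquitylation is lost. Against wild-type CMs, beta 1D and LAMA2 were lower in both lines, and AGRN and LAMB1 were higher in both. The 2 lines share the wild-type libraries and 1 estimate of the spread, so their results are not independent of each other. In UBE2B-/-1, 8 members were called higher and 3 lower of 42, beside 5.80% and 4.05% of protein-coding genes. In UBE2B-/-2, 6 were higher and 5 lower, beside 6.37% and 3.47%. Called in the same direction by the same transcript in both lines were AGRN, DAG1 and LAMB1 (higher) and ITGB1, ITGB2 and LAMA2 (lower), where 4.20% and 2.12% of protein-coding genes were called higher and lower in both.

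ITGB1-205 was at 10633 estimated counts in wild-type CMs, 3013 in UBE2B-/-1 and 2832 in UBE2B-/-2. Its changes were -1.82 ± 0.26 (q-value = 8.46e-09) and -1.91 ± 0.26 (q-value = 7.92e-10), the largest absolute z among the members in each line. Here only 5.97% of its variance was technical. LAMA2-201 was at 7539.7, 1775 and 1973 in the same order, with changes of -2.09 ± 0.43 (q-value = 0.000161) and -1.93 ± 0.43 (q-value = 0.000597). Both transcripts had risen from CP to CM in wild-type cells. LAMA2-205 was listed for UBE2B-/-1 only, at 1506 in wild type and 203 in that line (-2.89 ± 0.67), with a solved mean of 608 in UBE2B-/-2 (-1.31 ± 0.67, not past the test). ITGB2, the beta subunit of leukocyte integrins, was at 129 in wild type and at 1.80 and 1.34 in the lines (-5.81 ± 1.36 and -6.13 ± 1.36). Both line means lie under the floor of 3 counts, so that the sizes of these falls are not fixed, and no leukocyte marker of 8 was called in either line.

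AGRN and LAMB1 went the other way in both lines. AGRN-201, the full-length agrin transcript, was at 5048 in wild type, 14456 in UBE2B-/-1 and 16833 in UBE2B-/-2, with changes of 1.52 ± 0.42 (q-value = 0.0109) and 1.74 ± 0.42 (q-value = 0.00213). LAMB1 was called through LAMB1-204, the form with the other first exon, at 274, 1408 and 1218 (2.36 ± 0.56 and 2.15 ± 0.56). A smaller LAMB1 transcript, LAMB1-205, went the same way (2.29 ± 0.58 and 2.82 ± 0.58). The main transcript LAMB1-201 was listed for neither line. DAG1 was called only through ENST00000539901.5, which is not in the annotation used, at 0 in wild type and 55.8 and 55.8 in the lines (at least 18.6-fold higher in each). Of its variance, 73.3% was technical, and DAG1-201 was not listed.

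**Figure D3:**
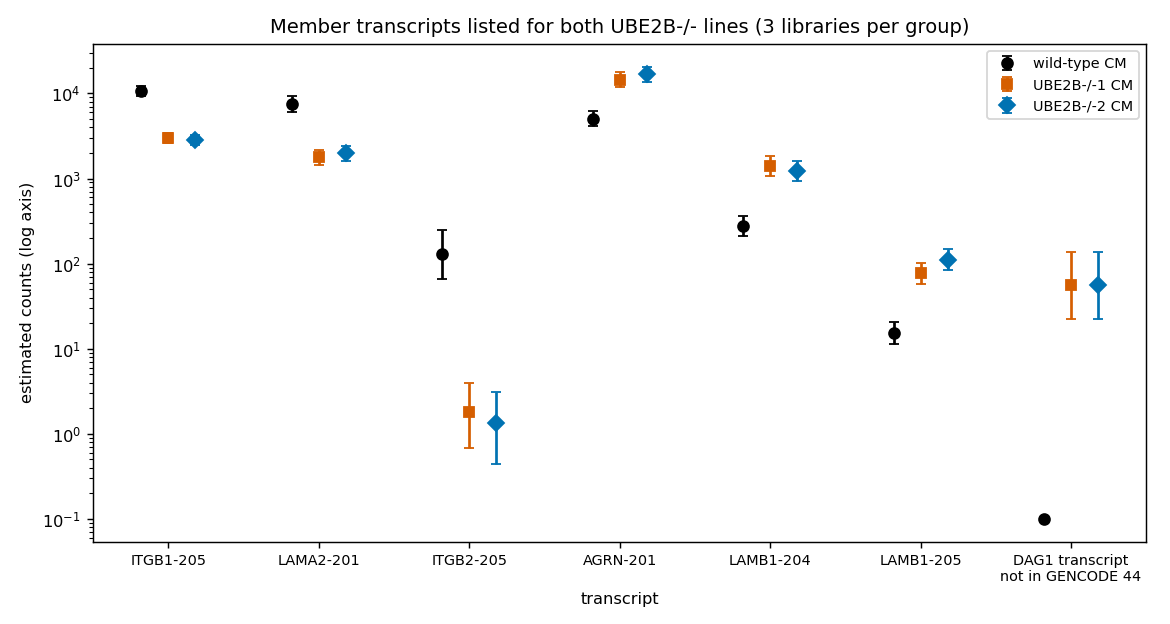
Recovered group means of the 7 member transcripts listed for both UBE2B-/- lines, in estimated counts on a log axis with 1 standard error of the mean, for wild-type CMs (black) and each line (orange and blue). ITGB1-205, LAMA2-201 and ITGB2-205 lie lower and the other transcripts higher in both lines, and in each transcript the means of both lines lie closer to each other than to wild type.

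Other members were called in 1 line, or in opposite directions in the 2 lines by different transcripts (ITGA7 and HSPG2). No single ITGA7 or HSPG2 transcript listed for a line had a solved change of the opposite sign in the other line. Where 2 solutions remained for such a transcript, both had the same sign. ITGA5-201 was called in UBE2B-/-1, from 2093 in wild type to 5428 (1.37 ± 0.43), and the mean in UBE2B-/-2, solved from the variance of the fit, was 4864 (1.22 ± 0.43, not past the test). ITGA8-201 was called in UBE2B-/-2, from 36.8 to 615 (4.04 ± 1.31), with a solved mean of 461 in UBE2B-/-1 (3.63 ± 1.31, not past the test). ITGA7-201 was called lower in UBE2B-/-2, from 1051 to 522 (-1.01 ± 0.31), with a solved value of 630.1 in UBE2B-/-1 (-0.74 ± 0.31). ITGA7 was called higher in UBE2B-/-1 through ITGA7-220, a transcript near 0 in wild type, so that the size of its rise is not fixed. HSPG2 went both ways within UBE2B-/-1. HSPG2-211, which retains an intron, was higher there (397 to 1605, 2.02 ± 0.55), with a solved change of 0.25 ± 0.55 in UBE2B-/-2. Its changes in the lines lay further apart than those of ITGA5-201, ITGA8-201 and ITGA7-201. The short coding HSPG2-215 was lower (-1.95 ± 0.63), with -1.55 ± 0.63 in UBE2B-/-2, not past the test. In UBE2B-/-2 the HSPG2 call was lower, through HSPG2-207, a retained-intron transcript whose solved mean there was 0, so that the size of its fall is not fixed. The calls of LAMA5 (2.05 ± 0.48) and LAMB2 (1.41 ± 0.46) in UBE2B-/-1 and of ITGA3 (1.99 ± 0.59) in UBE2B-/-2 came from transcripts with retained introns too. LAMC1 was called in UBE2B-/-2 through a short transcript (0 to 22.0).

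The difference between the lines was tested for the 1992 transcripts listed for both, of which 7 were members. By the Wald statistic with Benjamini-Hochberg adjustment 0 of 1992 differed, and 29 did so at an unadjusted p under 0.05, with no member among them. Being listed for both lines favours agreement between them. A further 14 member transcripts were listed for 1 line, and for 7 of these a single value could be solved in the other line. Of the 7, 2 differed between the lines at an unadjusted Wald p under 0.05, HSPG2-211 (UBE2B-/-2 minus UBE2B-/-1, -1.77 ± 0.55) and LAMA2-205 (1.58 ± 0.67), where being listed for 1 line favours a difference. For ITGB1-205 the mean change of both lines was -1.86 ± 0.23, for LAMA2-201 -2.01 ± 0.37, for AGRN-201 1.63 ± 0.36 and for LAMB1-204 2.25 ± 0.48.

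Partners of the members moved as follows in both lines. Dystrophin (DMD), which links dystroglycan to actin, was the only one of 12 dystroglycan partners called, with changes of -2.43 ± 0.46 and -1.79 ± 0.46. Of 28 adhesion adaptors, SRC, BCAR1 and SHARPIN were called higher and FERMT2 lower in both lines. None of 6 type IV collagens was called in both. Of 7 other integrin ligands, TNXB and TNC were called higher in both. TNC encodes tenascin C, a ligand of the ITGA9 and ITGAV receptors (2.84 ± 0.65 and 3.01 ± 0.65).

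Cell type markers differed between genotypes as well. Of 13 cardiomyocyte markers, 8 were lower in both lines. Their transcripts listed for both lines summed to 189245 estimated counts in wild type, 54378 in UBE2B-/-1 and 46585 in UBE2B-/-2. The other 5 are not in this sum. Of these, MYH6 and MYL2 were called lower in UBE2B-/-2 only, and MYH7, MYL3 and TNNI3 were called in neither line. Of 9 mesenchymal or fibroblast markers, 4 were higher in both, and summed in the same way they gave 10868, 104139 and 257564. Both sums hold only transcripts that passed the test in both lines, so they add no evidence to the calls. Beside the changes of ITGB1-205 and LAMA2-201, those of TNNT2, 1 of these 8 cardiomyocyte markers, were -1.48 ± 0.42 and -1.77 ± 0.42. Over the 8 they ran from -1.40 (MYL7) to -2.61 (RYR2) in UBE2B-/-1, and from -1.20 (MYL7) to -3.45 (NPPA) in UBE2B-/-2. The calls of TNNT2, TNNI1 and MYL7 were led by other transcripts than at CP to CM. Whether fewer cardiomyocytes among the beating cells account for the lower ITGB1-205 and LAMA2, or more fibroblast-like cells for the higher AGRN and LAMB1, was not tested. All p-values rest on the spread between these plates of 1 cell line and of 1 picked line for each UBE2B-/- group.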

How the data were processed

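Kallisto gave the authors' transcript estimates, after trimming by the FASTX-Toolkit, and Sleuth their tests, and hg38 is the build in the submitters' processing notes. They deposited 6 tables of their own comparisons. Each row holds, per transcript, the Wald p-value and q-value as deposited, the authors' effect b (a difference of natural log values) with its error, and the authors' variance estimates (scores on the squared natural log scale). Only q-values up to 0.05 are listed, with 0 columns of per-sample values, so depth is unknown. The values given here are those deposited comparison columns, rescaled to log2, since no other kind of file was used.

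From them, group means (pseudocount 0.5), the number of transcripts tested and, for transcripts listed for 1 UBE2B-/- line, the change in the other line were solved. These steps were checked on every listed transcript and tested on simulated data. Where 2 solutions remained, no value is given. Calls used a q-value up to 0.05 together with b, without its sign, of log2(1.5) or more. Background percentages are of 20020 protein-coding genes in GENCODE 44, tested or not. Offsets between comparisons came from shared groups.

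Named were the members with the 12 largest absolute z among those called at each step, those called in a UBE2B-/- line and those called in both directions. A few others, given to account for every call, were chosen after their values were seen. The results of 1 member are not reported here, though it stays in the counts. The members and lists were chosen with earlier results of these data known. Python 3.11.15, pandas 2.3.3 and scipy 1.17.1 were used.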

Additional observations from a re-analysis of the deposited data

How the results depend on the processing

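With 0 columns of per-sample values, no library could be left out and no batch could be examined, and the error of a value is that of the deposited fit. No paired analysis was possible because the tables hold results per group and none per replicate number. The largest dependence was on the distribution of the test: with a t distribution on 4 residual degrees of freedom (6 in the UBE2B-/- fit) in place of the normal, 3 member genes stayed called higher and 2 lower at CP to CM and 0 in every other count, 0 for both UBE2B-/- lines included. At an unadjusted p under 0.05 by the t distribution, 56 of the 60 called member transcripts passed at CP to CM. In the other comparisons all passed, but there the outcome was fixed in advance. Only q-values up to 0.05 are listed, and every transcript listed in those comparisons had an absolute z large enough to pass. With a q-value of at most 0.01, the members called lower at M to CMes were 4 in place of 7, those called higher in UBE2B-/-1 were 4 in place of 8, and those in UBE2B-/-2 were 3 in place of 6. Without a limit on b, 3 members were called higher at iPSC to M in place of 1, and 5 lower at CMes to CP in place of 3. The natural log of 1.5 as the limit and the most abundant transcript as the speaking one left each count within 1.5 times. Using a transcript's own residual variance could take away no call, since the deposited fit used the larger variance, and what it might add among unlisted transcripts is not known. Of 62 changes given for named genes, 9 lost the call at a q-value of 0.01, 57 with the t distribution and 1 with the most abundant transcript. None changed direction under any of the 6 alternatives, but this was largely fixed in advance. Every alternative keeps the sign of a transcript's change, so a direction could turn only where another transcript came to speak for the gene.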
